A study of Mus musculus with 18 samples.

Results

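The switch from clonal expansion to terminal differentiation was described in 3T3-L1 cells by comparing 3 libraries labelled Day4 with 3 labelled MCE2, which are 6 of the 18 libraries of the series. 3T3-L1 is an established mouse fibroblast line of committed preadipocytes that turn into fat cells when given inducers. MCE2 is the stage numbered 2 of mitotic clonal expansion, a round of divisions that precedes differentiation, and Day4 cells were taken 4 days after the differentiation stimuli. Both groups came from one line and one protocol: cells 2 days past confluence (day 0) received insulin (10 µg/mL), dexamethasone (0.25 µM) and IBMX (0.5 mM) for 48 h, and insulin (5 µg/mL) afterwards, with the medium changed every 2 days. Dexamethasone is a glucocorticoid, and IBMX blocks phosphodiesterases and so raises cAMP. The labels give no hour for MCE2 and do not say whether Day4 is counted from the start or the end of the 48 h, so stage, time and the medium of the cells cannot be told apart. Nothing says that the replicates were separate cultures, so a p-value reflects only how far these libraries scatter, which may be technical. The other 12 libraries, 3 each of Control, MCE1, Day6 and Day8, are given only as levels around this step, and the labels say of Control no more than its name.

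A confluent preadipocyte that is given inducers first re-enters the cell cycle. C/EBP beta and C/EBP delta act during these divisions, and C/EBP alpha and PPAR gamma then take over, turn on the genes of the fat cell and hold the cells out of cycle. The mature cell stores triglyceride in a droplet coated with perilipins, takes up glucose through an insulin-dependent carrier, and secretes hormones such as adiponectin.

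Each value is a gene's TPM in 1 library, a transcript level scaled by gene length and by the library's total, so it is a share of the library's RNA, keeps no read depth, and the depth is unknown. Of 25209 genes listed, 11607 were tested, those with 1 TPM or more in 3 or more of the 6 libraries. A gene can pass on the 3 libraries of 1 group alone, and such a gene is high in that group by selection. Values after ± are SDs of 3 libraries (n = 3 per group), fold values are ratios of mean TPM, and log2 fold changes are Day4 minus MCE2 of log2(TPM + 1), a scale that understates how much genes of low TPM change. A gene was called higher or lower at a Benjamini-Hochberg adjusted p under 0.05 in limma's moderated test, and "rose" and "fell" are used only of called genes. Log2 fold changes stand in parentheses behind gene names. Positions are those of the deposited tables on the mm9 build. In bulk RNA, fewer cells expressing a gene and less of its RNA per cell cannot be told apart.

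Day4 and MCE2 libraries differed in 54.3% of the genes tested. Fat cell genes such as Adipoq, Fabp4 and Cidec rose, and most measured genes of mitosis, DNA replication and ribosome biogenesis fell. Of the 11607 genes 3535 (30.5%) were called higher at Day4 and 2763 (23.8%) lower. In 59.9% of genes the 3 Day4 values all lay on one side of the 3 MCE2 values. The rises were larger than the falls: 884 genes rose and 437 fell by at least 1 log2 unit, 159 and 41 by at least 2, and 41 and 9 by at least 3. The median log2 fold change over all genes tested was 0.05. Quantile normalization between libraries turned the balance to 3039 higher and 3308 lower, so which direction held more genes depended on the scaling.

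**Figure D1:**
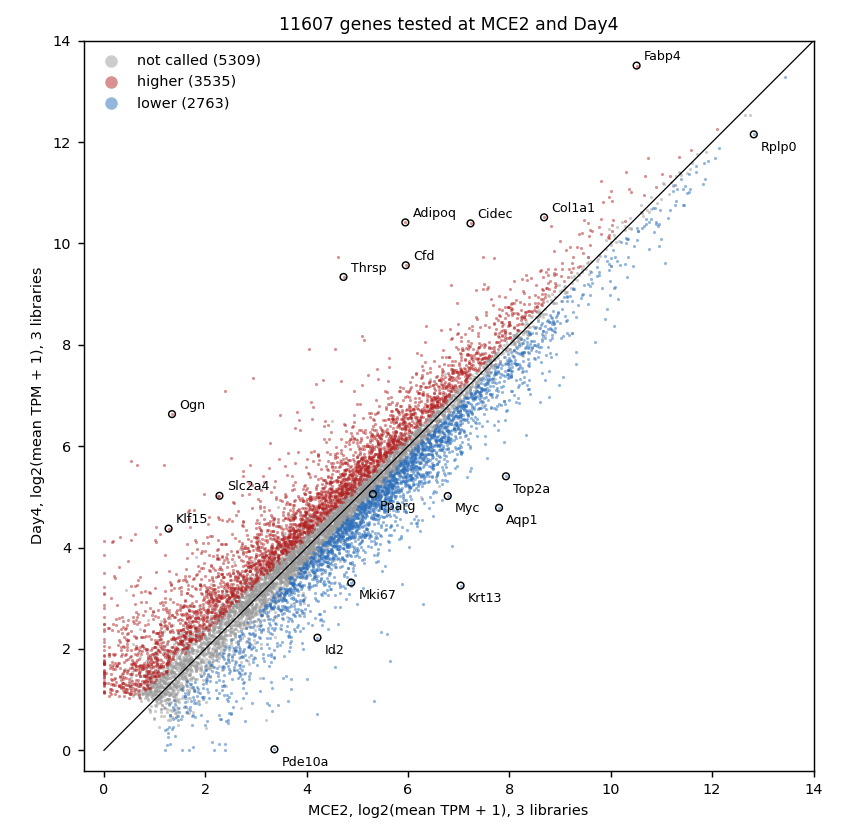
Each point is 1 of the 11607 genes tested, at its mean level in the 3 MCE2 libraries (x axis) and the 3 Day4 libraries (y axis), both as log2(mean TPM + 1), and the diagonal marks equal levels. Red points were called higher at Day4 (3535), blue points lower (2763) and grey points were not called (5309), and fat cell genes such as Adipoq, Thrsp and Cfd stand far above the diagonal.

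Within groups the libraries resembled each other more (Pearson's r 0.977 to 0.987 across genes, which are not independent replicates) than between groups (0.929 to 0.943). The first principal component of the 6 libraries held 70.2% of the variance and separated the groups. The second (10.0%) set Day4 replicate 1 apart from Day4 replicates 2 and 3. Without Day4 replicate 1, 3237 genes were called higher and 2522 lower. There were 34 cases of a gene at 0 in a single library whose 2 fellow replicates had 5 TPM or more. Some genes that most cells use are listed at 0 throughout (Hmgcs1 of cholesterol synthesis in all 6 libraries), so a listed 0 was not read as absence.

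The genes that carry cells through mitosis fell as a group and almost without exception. Of 51 measured members 48 were called lower at Day4 and 0 higher, against 23.8% and 30.5% of all genes, with a median log2 fold change of -1.27 against 0.05. The 48 were also called lower at Day4 than in Control (39.7% of all genes were, and 70.7% were called in either direction). Top2a (chromosome 11, 98854261 to 98885503), the topoisomerase that untangles chromosomes before they separate, stood at 221, 256 and 252 TPM at MCE2 and 42.5, 40.8 and 40.8 TPM at Day4. The groups lay far apart, and the mean fell 5.87-fold (-2.52 ± 0.06 SE on the log2 scale, adjusted p = 8.71e-14). Aurkb, a kinase of the chromosomal passenger complex, read 39.9, 44.4 and 47.4 TPM at MCE2 and 10.6, 10.9 and 10.3 TPM at Day4 (-1.95 ± 0.08 SE on the log2 scale, adjusted p = 3.57e-11). Every Day4 value was below every MCE2 value there as well. Ccnb1, the cyclin that drives entry into mitosis, fell from 101 ± 10.4 to 29.5 ± 0.595 TPM, and Mki67, the marker of cycling cells, from 28.4 ± 4.37 to 8.896 ± 1.21 TPM (log2 fold changes -1.74 and -1.57). Bub1b of the spindle checkpoint (-1.91), the ubiquitin carrier Ube2c (-1.80) and the spindle kinase Aurka (-1.68) fell by similar amounts. The 3 members not called were Smc4, Ect2 and Cenpk.

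By MCE2 the mitosis genes were already below their level at MCE1. Summed over the 53 listed mitosis genes, the level went from 4873 ± 116 TPM in Control and 6199 ± 141 at MCE1 to 2225 ± 132 at MCE2 and 839 ± 10.7 at Day4. It was 997 ± 9.399 at Day6, where 23 members were called above Day4 (14.3% of all genes were) and 0 below (12.3%), and 671 ± 10.03 at Day8. The comparisons with Control and with Day6 share the Day4 libraries with the main one.

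DNA replication genes fell too, by less and with more exceptions. Of 53 measured members 42 were called lower (79.2%, against 23.8% of all genes) and 0 higher (against 30.5%), with a median of -0.80. The helicase subunits that license origins led: Mcm5 (chromosome 8, 77633408 to 77652338) read 69.1, 81.9 and 79.1 TPM at MCE2 and 21.7, 21.97 and 23.6 TPM at Day4 (-1.73 ± 0.14 SE on the log2 scale, adjusted p = 3.03e-08). Its groups did not overlap. Mcm7 (-1.71), Mcm3 (-1.65) and Mcm2 (-1.41) of the same ring, Mcm10 (-1.65), the loader Cdc6 (-1.62) and the checkpoint adaptor Clspn (-1.68) also fell. Pcna, the sliding clamp, fell from 311 ± 12.6 to 163 ± 6.67 TPM (-0.93 ± 0.05 SE on the log2 scale, adjusted p = 2.56e-10). The other 11 members, the origin subunit Orc5 among them, were not called.

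What these 2 groups share in sequence differed. The promoters below, from RefSeq on the GRCm38.p6 build, are the 150 bases before the annotated start, shown for the called members with the largest change that hold each motif there. In the mitosis promoters the capitals mark the cell cycle homology region (CHR, TTTGAA or TTCAAA on the other strand) and the CCAAT box (CCAAT or ATTGG). In the replication promoters they mark an E2F form (TTTGGCGC or GCGCCAAA).
Top2a (chr11:99024190-99024339, minus strand): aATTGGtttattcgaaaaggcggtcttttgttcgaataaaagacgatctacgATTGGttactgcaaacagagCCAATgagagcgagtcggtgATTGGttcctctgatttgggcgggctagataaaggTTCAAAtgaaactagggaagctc
Ube2c (chr2:164769779-164769928, plus strand): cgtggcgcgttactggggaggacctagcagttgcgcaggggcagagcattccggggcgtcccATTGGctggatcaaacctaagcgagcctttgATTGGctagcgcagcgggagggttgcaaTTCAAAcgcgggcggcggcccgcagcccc
Kif11 (chr19:37376232-37376381, plus strand): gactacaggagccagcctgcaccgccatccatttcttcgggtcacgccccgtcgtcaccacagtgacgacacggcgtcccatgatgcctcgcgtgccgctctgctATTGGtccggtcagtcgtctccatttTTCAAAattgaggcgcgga
Mcm5 (chr8:75109359-75109508, plus strand): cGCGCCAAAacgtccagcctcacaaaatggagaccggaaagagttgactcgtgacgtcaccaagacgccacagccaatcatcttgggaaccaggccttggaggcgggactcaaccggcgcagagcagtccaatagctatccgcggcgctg
Mcm6 (chr1:128359706-128359855, minus strand): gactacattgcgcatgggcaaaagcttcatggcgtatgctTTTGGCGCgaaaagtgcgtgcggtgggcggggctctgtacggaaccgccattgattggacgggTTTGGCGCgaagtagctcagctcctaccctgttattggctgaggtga
Pola1 (chrX:93632156-93632305, minus strand): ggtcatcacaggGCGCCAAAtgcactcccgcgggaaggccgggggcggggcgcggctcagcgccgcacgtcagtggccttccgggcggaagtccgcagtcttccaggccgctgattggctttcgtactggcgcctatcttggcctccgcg

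In the 3 mitosis promoters the CHR starts close to the gene, 23 bases before the annotated start for Top2a, 29 for Ube2c and 19 for Kif11. Kif11, a spindle motor, and the replication genes Mcm6 and Pola1, a helicase subunit and a polymerase catalytic subunit, had log2 fold changes of -1.57, -1.37 and -0.83. A promoter window of 300 bases (250 before and 50 after the start) was found for 42 mitosis and 42 replication genes by symbol, and a gene counts if any of its windows holds the motif on either strand. The CHR was in 29 of the mitosis genes (69.05%) and in 7 of the replication genes (16.7%), against 13.6% of the 9101 tested genes with a window and 20.2% of all 27025 genes in the table. The CCAAT box was in 76.2%, 57.1%, 43.4% and 41.1% of these sets. Both motifs together were in 64.3% of mitosis genes, 9.52% of replication genes and 6.81% of the tested genes.

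The E2F forms ran the other way. TTTGGCGC was in 6 replication genes (14.3%) and 1 mitosis gene (2.38%), against 1.15% of the tested genes and 0.585% of the table. TTCCCGCC was in 8 replication genes (19.05%) and in 0 of 42 mitosis genes, against 4.75% and 2.52%. Over all genes called lower the shares were 14.9% for the CHR, 1.76% for TTTGGCGC and 6.41% for TTCCCGCC, so the CHR was near its share of all tested genes. Within the mitosis list the median log2 fold change was -1.22 for the 29 genes with a CHR and -1.17 for the 13 without. These are matches of letters, described without a test, and were not tested as sites.

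**Figure D2:**
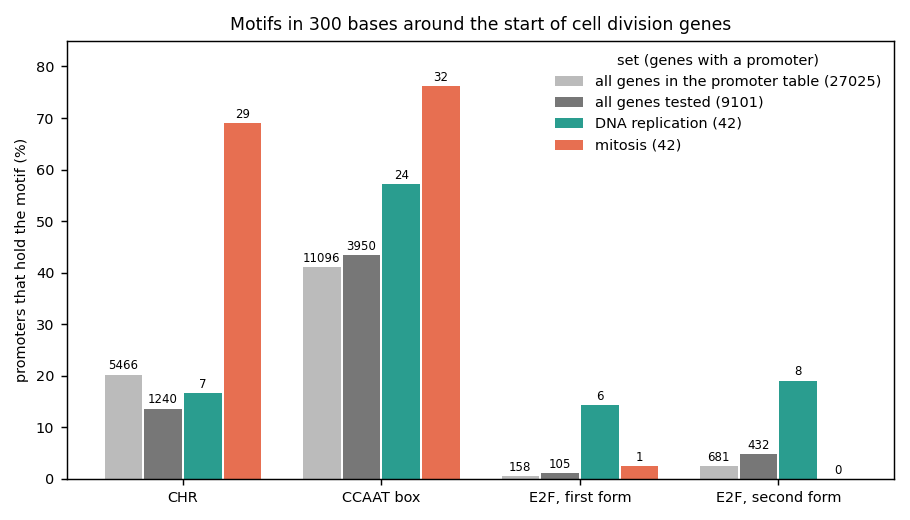
Bars give the percentage of genes whose promoter window of 300 bases holds each motif on either strand, for all genes in the RefSeq promoter table, all genes tested, the replication list and the mitosis list, with the number of genes above each bar. The CHR stands at 69.0% in the mitosis list and 16.7% in the replication list, and both E2F forms are higher in the replication list.

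Cell cycle regulators moved both ways. Of 42 measured members 14 rose (33.3%, against 30.5% of all genes), 16 fell (38.1%, against 23.8%) and 12 were not called. Myc (chromosome 15, 61816896 to 61821916), a driver of growth and division, stood at 98.2, 115 and 114 TPM at MCE2 and 21.1, 38.3 and 34.7 TPM at Day4 (-1.80 ± 0.27 SE on the log2 scale, adjusted p = 3.84e-05). The MCE2 libraries were the highest of the series, with means of 40.9 TPM in Control and 66.7 at MCE1. Ccnd1, the G1 cyclin, fell from 79.7 ± 2.98 to 56.5 ± 2.75 TPM and had been 579 ± 21.8 in Control. Cdkn2b, which inhibits CDK4 and CDK6, rose from 32.1 ± 1.34 to 113 ± 4.45 TPM (1.78 ± 0.08 SE on the log2 scale, adjusted p = 8.11e-11), and Cdkn2a at the same locus from 239.5 ± 13.4 to 492 ± 21.3. Btg2, an antiproliferative gene, rose 5.003-fold (2.11).

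Of the CIP/KIP inhibitors, Cdkn1b and Cdkn1a were not called. Cdkn1c (p57) did not pass the filter, with at most 0.462 TPM in a Day4 library. Cdkn1b (p27) read 52.9, 66.5 and 61.5 TPM at MCE2 and 57.2, 61.8 and 58.7 TPM at Day4, with overlapping groups (-0.02 ± 0.08 SE on the log2 scale, adjusted p = 0.853). Cdkn1a (p21) read 4.31, 9.001 and 0 TPM at MCE2 and 9.01, 1.58 and 10.4 TPM at Day4 (0.82 ± 0.86 SE on the log2 scale, adjusted p = 0.448), and its Day4 libraries spread widely. Tfdp1, the partner of E2F factors, had the lowest log2 fold change of the list (-3.03, and -3.68 without MCE2 replicate 2), with 82.6, 14.7 and 42.8 TPM at MCE2 and 2.61, 3.17 and 5.95 TPM at Day4. Its mean was 33.7 TPM at Day6 and 11.6 at Day8, where the libraries ranged from 7.23 to 65.7 and from 6.72 to 19.04, so libraries of one group also differed widely for this gene. E2f8, a repressor among the E2F factors, fell from 5.62 ± 1.77 to 1.65 ± 0.37 TPM (-1.29).

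Genes that supply building blocks for growth fell with those of division. Of 32 genes of nucleotide synthesis 24 fell (75.0%, against 23.8% of all genes) and 3 rose (9.38%, against 30.5%), with a median of -0.54. Rrm2, the cell cycle subunit of ribonucleotide reductase, fell from 141 ± 8.62 to 40.8 ± 1.45 TPM (-1.77 ± 0.07 SE on the log2 scale, adjusted p = 1.87e-11). Ctps (-1.37), Tyms (-1.34), Shmt2 (-1.18) and Cad (-1.11), which make CTP, thymidylate, one-carbon units and pyrimidines, fell as well. Impdh1 of guanine nucleotide synthesis rose (0.62) while its close relative Impdh2 fell (-0.97), from 392 ± 10.2 to 200.1 ± 7.11 TPM.

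Genes of ribosome biogenesis fell almost as uniformly as those of mitosis. Of 43 biogenesis genes 39 were called lower (90.7%, against 23.8% of all genes) and 0 higher (against 30.5%), with a median of -0.71. Nop56, a core protein of box C/D particles that guide ribosomal RNA modification, read 347, 361 and 308 TPM at MCE2 and 148, 118 and 123 TPM at Day4 (-1.38 ± 0.18 SE on the log2 scale, adjusted p = 1.21e-05). Its groups lay apart. The RNA polymerase I subunits Polr1a (-1.39) and Polr1b (-1.39), the nucleolar phosphoprotein Nolc1 (-1.45) and the processing factor Rrp12 (-1.38) fell as well. At Day6, 19 of the 43 were called below Day4 and 0 above, against 12.3% and 14.3% of all genes.

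The ribosomal proteins themselves shifted by less. Of 41 measured genes 17 fell (41.5%, against 23.8% of all genes), 5 rose (12.2%, against 30.5%) and 19 were not called (median -0.11). They include 4 of the 6 largest falls in TPM: Rplp0, the stalk protein of the large subunit, fell from 7236 ± 375 to 4551 ± 118 TPM (-0.67 ± 0.05 SE on the log2 scale, adjusted p = 3.28e-08), and Rps16 from 2740.5 ± 233 to 1736 ± 115. The 2 others were Rpl28 (3595 to 2322 TPM) and Rpl7a (2768 to 1734 TPM). Summed over the list the level was 88853 ± 4127 TPM at MCE2 and 78329 ± 2599 at Day4. Ribosomal protein genes have many near-identical pseudogene copies, and reads could be split among them.

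**Figure D3:**
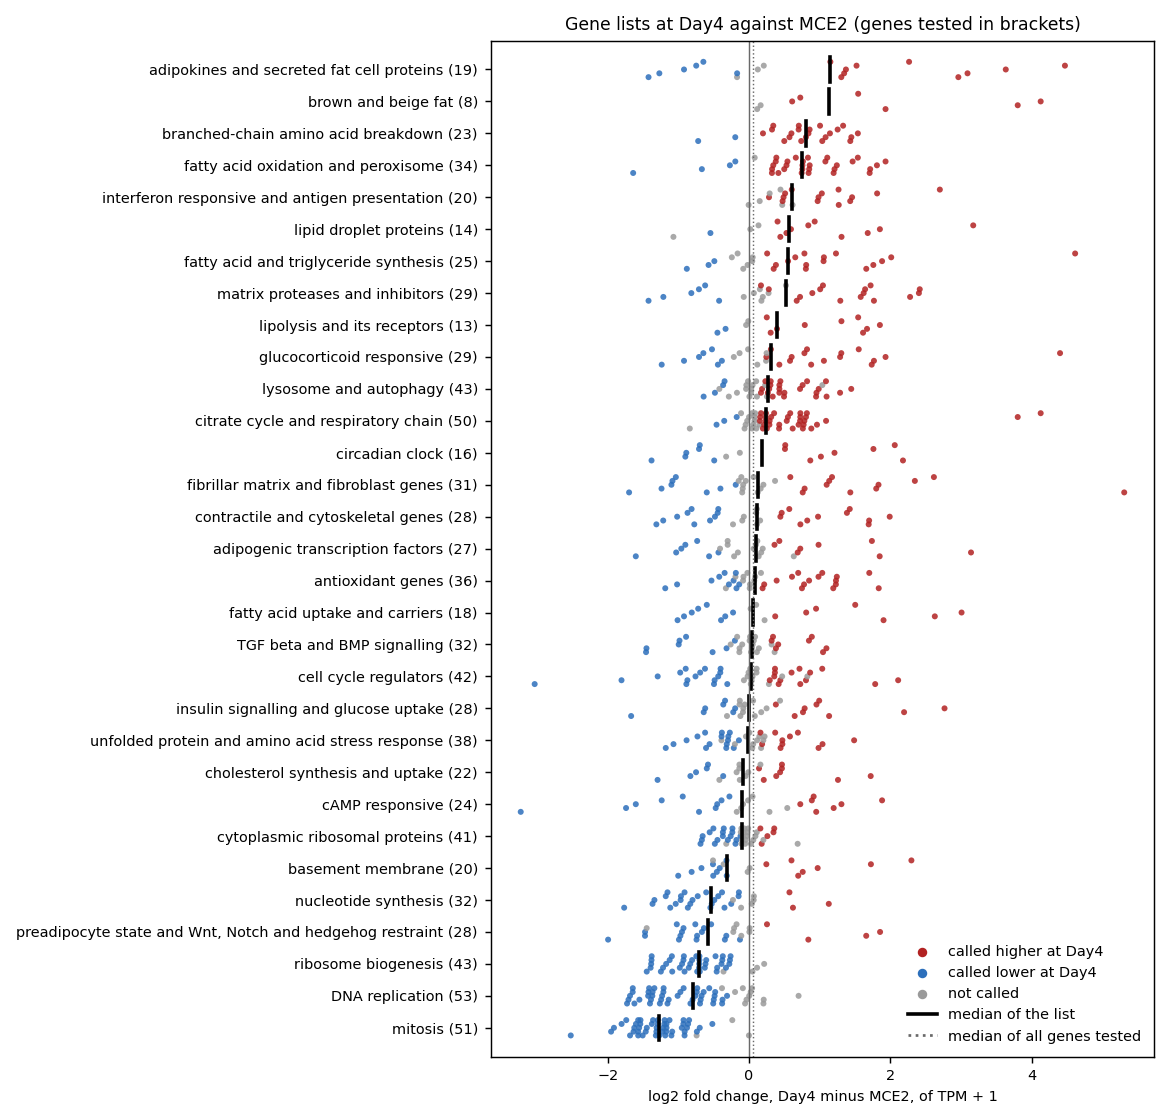
Each point is 1 tested gene at its log2 fold change (Day4 minus MCE2), in rows by gene list ordered by the list's median (black bar), with red for called higher, blue for called lower and grey for not called. Mitosis (median -1.27), DNA replication (-0.80) and ribosome biogenesis (-0.71) lie lowest, and adipokines (1.15) and branched-chain amino acid breakdown (0.80) are among the highest.

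The transcription factors of adipogenesis showed no common direction. Of 27 measured factors 8 rose (29.6%), 7 fell (25.9%) and 12 were not called, shares close to those of all genes (30.5% and 23.8%). Cebpb (chromosome 2, 167514415 to 167515932), which starts the cascade, stood at 1145, 1079 and 1003 TPM at MCE2 and 473, 663 and 537 TPM at Day4 (-0.96 ± 0.16 SE on the log2 scale, adjusted p = 1.19e-04). It fell to 558 ± 96.8 TPM and stayed above its Control mean of 244. Cebpd, the other early C/EBP, was not called (210.01 and 228 TPM) and stood at 68.8 TPM at Day6. Cebpa (chromosome 7, 35904312 to 35906947), which acts later, read 122, 93.5 and 124 TPM at MCE2 and 188, 161 and 198 TPM at Day4 (0.69 ± 0.15 SE on the log2 scale, adjusted p = 0.00142). The 3 Day4 libraries all lay above the 3 MCE2 libraries, although by a smaller factor than the fat cell genes below.

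Klf15, an activator of Slc2a4 and of amino acid breakdown, showed the largest rise among the factors. It read 1.09, 0.884 and 2.28 TPM at MCE2 and 21.3, 19.5 and 18.4 TPM at Day4 (3.14 ± 0.15 SE on the log2 scale, adjusted p = 1.53e-10), and every Day4 value lay far above every MCE2 value. Nr1h3 (LXR alpha), the oxysterol receptor, rose 3.66-fold (1.85), and Klf2 from 5.57 ± 0.728 to 20.9 ± 2.61 TPM. Pparg read 41.4, 31.5 and 42.7 TPM at MCE2 and 37.3, 39.98 and 19.5 TPM at Day4, with overlapping groups (-0.30 ± 0.63 SE on the log2 scale, adjusted p = 0.708), so no change in its level was detected. Srebf1, the activator of lipogenic genes, fell from 131 ± 3.36 to 96.7 ± 4.42 TPM (-0.43), as did the nuclear receptor partner Rxra (-0.73) and Klf5 (-1.03), an early factor.

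Restraints on differentiation were mostly lower. There were 28 measured genes of the preadipocyte state and of Wnt, Notch and hedgehog signalling (median -0.59). Of these 17 fell (60.7%, against 23.8% of all genes) and 4 rose (14.3%, against 30.5%). Id2, an inhibitor of helix-loop-helix factors, stood at 14.1, 22.01 and 16.5 TPM at MCE2 and 3.83, 4.62 and 2.54 TPM at Day4 (-1.99 ± 0.28 SE on the log2 scale, adjusted p = 2.21e-05), and its mean in Control was 107. Id3 (-1.02), the receptor Notch1 (-1.47), the Wnt coreceptor Lrp5 (-0.99), the Wnt effector Tcf7l1 (-0.95) and the hedgehog effector Gli2 (-0.97) fell. The progenitor surface protein Ly6a fell from 182 ± 35.6 to 65.3 ± 14.4 TPM. Against this direction Wnt6 (1.85), the Wnt antagonist Sfrp2 (1.66) and Wnt5a (0.84) rose. Dlk1 (Pref-1), the classical preadipocyte marker, read 9.86, 26.4 and 6.96 TPM at MCE2 and 0, 9.09 and 10.5 TPM at Day4 and was not called. Day4 replicate 1 is listed at 0, and without Day4 replicate 3 the gene was called lower (-2.07, adjusted p = 0.0452).

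Several secreted products of the fat cell rose by large factors. Of 19 measured adipokines and secreted proteins 10 rose (52.6%, against 30.5% of all genes) and 6 fell (31.6%, against 23.8%), with a median of 1.15. Adipoq (adiponectin, chromosome 16, 23146609 to 23158041) read 60.9, 57.9 and 63.1 TPM at MCE2 and 1304, 1419 and 1369 TPM at Day4 (4.47 ± 0.15 SE on the log2 scale, adjusted p = 5.66e-12). The mean rose 22.5-fold and went on to 3167 TPM at Day6 and 3594 at Day8. Cfd (adipsin, chromosome 10, 79353598 to 79355400) rose from 61.02 ± 11.97 to 759 ± 37.3 TPM (3.63 ± 0.12 SE on the log2 scale, adjusted p = 2.03e-12), and Retn (resistin) from 177 ± 17.4 to 851 ± 26.7 (2.26). Rarres2 (chemerin, 2.96), haptoglobin (Hp, 3.09), complement C3 (1.52), Apln (1.35) and Nampt (1.15) also rose.

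Other members of this list fell. Angptl4, an inhibitor of lipoprotein lipase, fell from 419 ± 17.5 to 221 ± 2.49 TPM (-0.92), and the adiponectin receptor Adipor2 from 333 ± 4.18 to 139 ± 26.95 (-1.27). Lcn2 (lipocalin 2), an acute phase protein, fell from 561 ± 19.6 to 358 ± 27.2 TPM (-0.65), a call lost with a pseudocount of 0.1 (-0.65, adjusted p = 0.232). Lep (leptin) did not pass the filter, with at most 0.199 TPM in a Day4 library.

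Most of the proteins of the lipid droplet rose. Of 14 measured members 10 rose (71.4%, against 30.5% of all genes) and 1 fell (7.14%, against 23.8%), with a median of 0.56. Cidec (chromosome 6, 113374628 to 113385754), which fuses droplets into one, read 178, 132 and 138 TPM at MCE2 and 1506, 1290.5 and 1242 TPM at Day4 (3.17 ± 0.16 SE on the log2 scale, adjusted p = 2.99e-10). Plin1 (chromosome 7, 86866050 to 86877662), the coat protein that gates lipolysis, read 60.6, 84.8 and 68.4 TPM at MCE2 and 218, 223 and 245 TPM at Day4 (1.68 ± 0.18 SE on the log2 scale, adjusted p = 1.54e-06). In both genes the groups lay far apart. G0s2, an inhibitor of the lipase ATGL, rose 3.63-fold (1.85), Plin4 1.91-fold (0.93) and Plin2, which coats small droplets in many cells, 1.44-fold (0.53). Fitm2, which helps droplets bud, fell from 285 ± 3.64 to 195 ± 21.7 TPM (-0.55). The C/EBP element TTGCNCAA (either strand) was in 3 of 13 droplet genes with a promoter window (23.1%), against 2.98% of tested genes and 3.37% of the table. It was in 1 of 13 uptake genes, 1 of 18 synthesis genes and 2 of 13 adipokine genes. The PPAR element AGGTCANAG (either strand) was in 0 of 13 droplet, 1 of 13 uptake and 0 of 18 synthesis genes, against 1.64% of tested genes and 2.31% of the table. Plin1 is among the droplet genes with the C/EBP element and is shown here with the match in capitals, as a description without a test.
Plin1 (GRCm38.p6, chr7:79732777-79732926, minus strand): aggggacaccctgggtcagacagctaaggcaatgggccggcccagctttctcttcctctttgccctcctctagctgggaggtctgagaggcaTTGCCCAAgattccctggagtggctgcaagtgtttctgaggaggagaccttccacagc

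Fatty acid uptake genes and carriers moved both ways. Of 18 members 7 rose (38.9%, against 30.5% of all genes) and 8 fell (44.4%, against 23.8%). Fabp4 (aP2, chromosome 3, 10204343 to 10208616), the fatty acid carrier of fat cells, read 1272, 1578 and 1519 TPM at MCE2 and 11806, 11973 and 11217 TPM at Day4 (3.01 ± 0.08 SE on the log2 scale, adjusted p = 3.75e-13). This was the largest rise in TPM of any gene tested, 8.01-fold, and the groups lay far apart. Its close relative Fabp5 fell, from 1721 ± 64.6 to 1366 ± 135 TPM (-0.34). Lpl, which frees fatty acids from lipoproteins, rose from 1708 ± 90.6 to 3294 ± 145 TPM (0.95 ± 0.07 SE on the log2 scale, adjusted p = 1.16e-08), the transporter Cd36 3.83-fold (1.90) and the glycerol channel Aqp7 from 0.524 ± 0.0503 to 8.43 ± 0.585 TPM (2.63). The lipoprotein receptor Lrp1 (-1.01) fell.

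Most genes of fatty acid and triglyceride synthesis rose, and none of Acly, Acaca and Fasn, which turn citrate into fatty acids, was called higher. Of 25 members 16 rose, against 30.5% of all genes, and 3 fell, against 23.8% (median 0.55). Among the 6 not called were Gpam and Lpin2 of triglyceride assembly. Dgat2, the last enzyme of triglyceride synthesis, rose from 159.99 ± 2.41 to 544 ± 24.8 TPM (1.76 ± 0.07 SE on the log2 scale, adjusted p = 1.12e-11). Gpd1, which makes the glycerol backbone, rose 4.05-fold (2.01), Acsl1, which activates fatty acids, 1.75-fold (0.81) and Agpat2 1.27-fold (0.35). Thrsp (Spot 14), a regulator of lipogenesis, read 26.5, 25.1 and 24.7 TPM at MCE2 and 626, 671 and 643 TPM at Day4 (4.61 ± 0.07 SE on the log2 scale, adjusted p = 8.00e-16). The groups lay far apart, and it ranked among the 8 highest log2 fold changes of called genes.

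Acly, which cleaves citrate to acetyl-CoA, fell from 161 ± 8.14 to 86.9 ± 3.57 TPM (-0.88 ± 0.10 SE on the log2 scale, adjusted p = 1.19e-06), and the elongase Elovl6 (-0.57) and the desaturase Scd2 (-0.49) fell. Fasn (fatty acid synthase) read 299.97, 294 and 306 TPM at MCE2 and 235, 259.6 and 266 TPM at Day4 and was not called (-0.24 ± 0.13 SE on the log2 scale, adjusted p = 0.115) although the groups did not overlap. Fasn was called lower with the fit on the 6 libraries alone (adjusted p = 0.00948) and with median-ratio scaling (0.035). Acaca, which makes malonyl-CoA, was not called either (-0.16 ± 0.13 SE on the log2 scale, adjusted p = 0.312). Scd1, the other desaturase, rose from 507 ± 36.5 to 1058 ± 91.2 TPM (1.06), and Me1, which supplies NADPH, 2.37-fold (1.23). At Day6, Acly stood at 144 and Fasn at 363 TPM. There 19 of the 25 members were called above Day4, against 14.3% of all genes, and 2 below, against 12.3%.

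Lipolysis genes rose as well. Of 13 members 9 rose (69.2%, against 30.5% of all genes) and 2 fell (15.4%, against 23.8%). Pnpla2 (ATGL), the first lipase, rose from 178 ± 5.46 to 545 ± 23.4 TPM (1.61 ± 0.06 SE on the log2 scale, adjusted p = 1.38e-11), while Lipe (hormone-sensitive lipase) read 241, 246 and 247 TPM at MCE2 and 249, 244 and 220.4 TPM at Day4, with overlapping groups (-0.04 ± 0.13 SE on the log2 scale, adjusted p = 0.811). The receptors that steer lipolysis were low: Hcar1, the lactate receptor, rose from 2.78 ± 0.357 to 11.04 ± 1.27 TPM, and Adrb3, the beta3 adrenergic receptor, was listed at 0 in all MCE2 libraries and at 1.56, 1.799 and 2.45 TPM at Day4, reaching 84.2 TPM at Day8.

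Insulin signalling genes showed no common direction. Of 28 members 9 rose (32.1%, against 30.5% of all genes), 7 fell (25.0%, against 23.8%) and 12 were not called. Slc2a4 (GLUT4, chromosome 11, 69755788 to 69761692), the insulin-dependent glucose carrier, read 5.21, 3.01 and 3.33 TPM at MCE2 and 28.2, 34.4 and 31.8 TPM at Day4 (2.77 ± 0.14 SE on the log2 scale, adjusted p = 2.38e-10). The groups did not overlap, and the mean rose 8.17-fold and was 127 TPM at Day6. Ppp1r3c, which targets a phosphatase to glycogen, rose 4.67-fold (2.19), and the insulin receptor Insr 2.03-fold (0.95). The 2 receptor substrates went opposite ways: Irs1 rose from 8.56 ± 1.07 to 17.96 ± 1.02 TPM (0.99) and Irs2 fell from 72.7 ± 1.93 to 22.2 ± 1.79 (-1.67).

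Breakdown of branched-chain amino acids had the highest share of rises of the lists, those of cell type markers left out. All 23 measured members were called, 21 higher (91.3%, against 30.5% of all genes) and 2 lower (8.70%, against 23.8%), with a median of 0.80. Bcat2, the mitochondrial transaminase of the first step, read 193, 183 and 187 TPM at MCE2 and 516, 574 and 553 TPM at Day4 (1.54 ± 0.08 SE on the log2 scale, adjusted p = 2.96e-10), with groups far apart. The dehydrogenase subunits Dbt (1.45), Bckdhb (1.04) and Bckdha (0.84), the leucine branch enzymes Mccc1 (1.43) and Mccc2 (1.08) and the valine branch enzymes Hibch (1.25) and Aldh6a1 (1.33) rose together. The 2 that fell were Bcat1 (-0.72, and -1.09 with quantile normalization), the cytosolic transaminase, and Bckdk (-0.20), the kinase that switches the dehydrogenase off. The call of Bckdk was lost with a replicate block on the 6 libraries alone (adjusted p = 0.0504).

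Genes of fatty acid oxidation rose almost as broadly. Of 34 members 29 were higher (85.3%, against 30.5% of all genes) and 4 lower (11.8%, against 23.8%), with a median of 0.75. Acadm, the medium-chain dehydrogenase, rose from 179 ± 7.58 to 586 ± 6.096 TPM (1.71 ± 0.06 SE on the log2 scale, adjusted p = 7.11e-12). Cat (catalase, 1.24) and Acaa1a (1.21) of the peroxisome and Etfa (1.11) of electron transfer rose too. Ucp2, a mitochondrial carrier, fell 3.12-fold, from 827 ± 55.9 to 265 ± 28.97 TPM (-1.64 ± 0.08 SE on the log2 scale, adjusted p = 1.75e-10). Cpt1a, the gate of mitochondrial oxidation, was called lower (-0.27 ± 0.10 SE on the log2 scale, adjusted p = 0.0324). That call was lost without MCE2 replicate 1 (adjusted p = 0.0511), MCE2 replicate 2 (0.0685), MCE2 replicate 3 (0.0805) or Day4 replicate 2 (0.165), and with a replicate block on the 6 libraries alone (0.059).

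Many genes of the citrate cycle and respiratory chain rose by small amounts. Of 50 members 33 rose (66.0%, against 30.5% of all genes), 3 fell (6.00%, against 23.8%) and 14 were not called (median 0.25). Pdhb of pyruvate dehydrogenase rose from 259 ± 5.797 to 551 ± 19.9 TPM (1.09), and Sdhb of succinate dehydrogenase 1.85-fold (0.88). The 2 largest changes came from tissue-restricted cytochrome oxidase subunits, Cox7a1, with 0, 1.57 and 0 TPM at MCE2 and 20.2, 20.5 and 14.3 TPM at Day4, and Cox8b, listed at 0 in all MCE2 libraries and at 14.9, 18.5 and 16.2 TPM at Day4. These went on to 243 and 186 TPM at Day8. Among 8 measured brown and beige fat genes, these 2 included, 6 rose (75.0%, against 30.5% of all genes) and 0 fell (against 23.8%). The other 15 of the 23 listed did not pass the filter. Cox7a1 and Cox8b passed it on their Day4 values alone, so the count of rises was partly set by the filter. Pdk4, a brake on pyruvate dehydrogenase, was at 7.17 ± 1.18 and 29.9 ± 1.28 TPM, while Ucp1, Cidea and Prdm16 were listed at 0 in all 6 libraries.

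**Figure D4:**
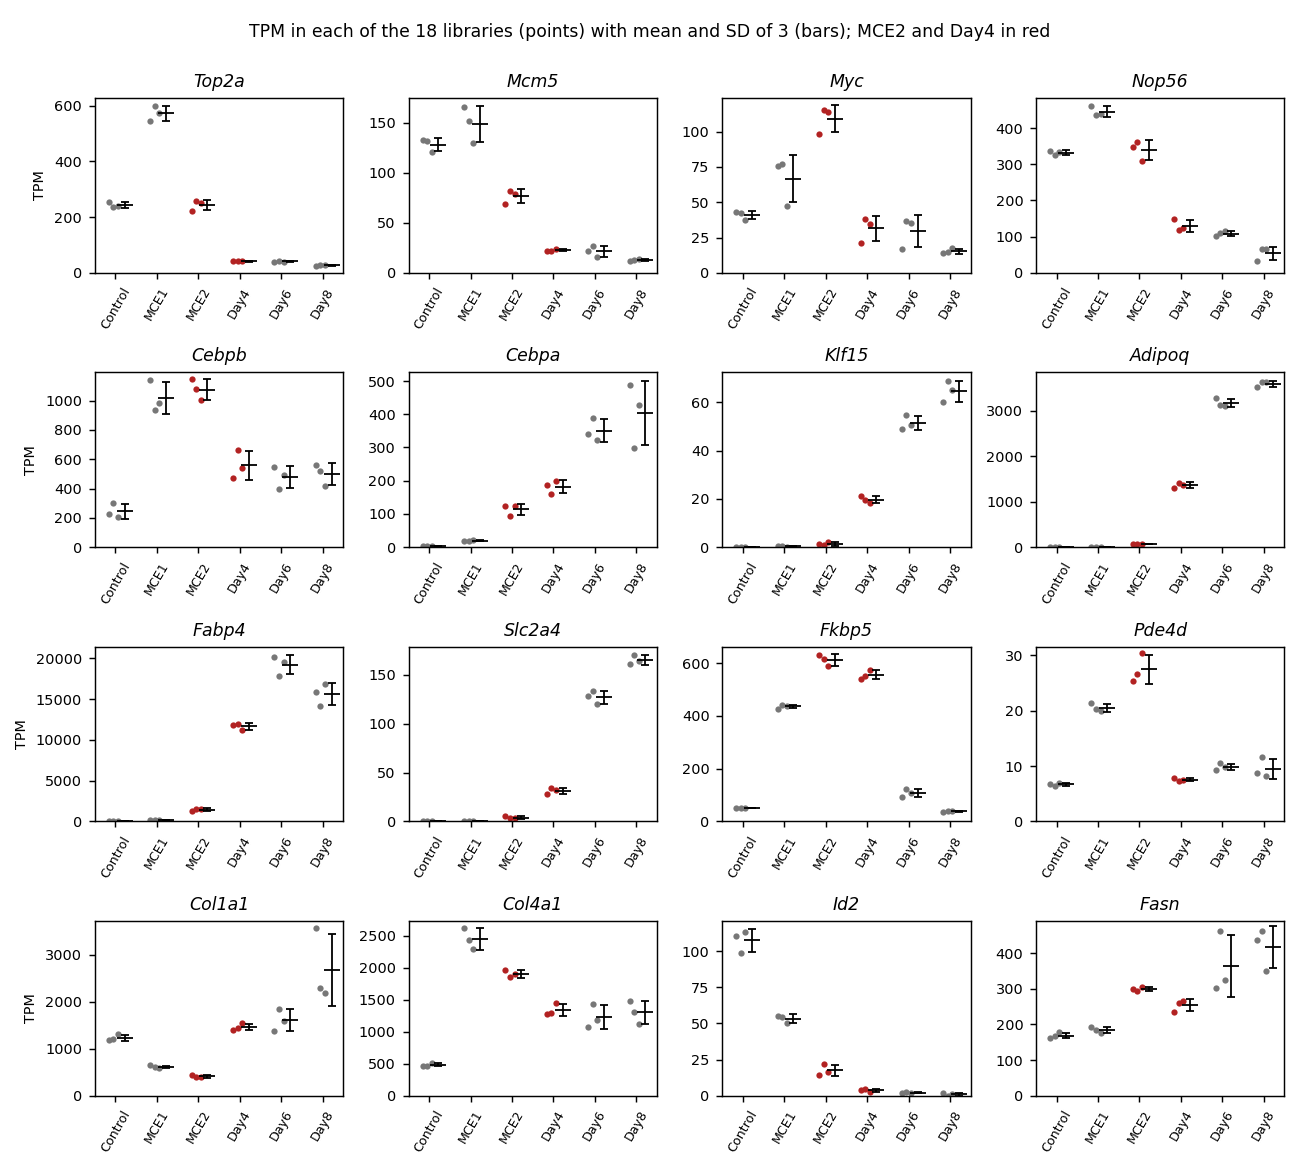
TPM of 16 genes in each of the 18 libraries (points), by stage in order from Control to Day8, with the mean and SD of 3 libraries beside them and MCE2 and Day4 in red. Top2a, Mcm5 and Myc drop between MCE2 and Day4, Adipoq, Fabp4 and Slc2a4 climb there and go on climbing to Day6, and Fkbp5 stays high at Day4 and drops at Day6.

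Of the genes that answer to the inducers, those of cAMP fell somewhat more often than they rose. Of 24 measured cAMP responsive genes 10 fell (41.7%, against 23.8% of all genes) and 7 rose (29.2%, against 30.5%), with a median of -0.10. Pde4d, a cAMP phosphodiesterase that cAMP itself induces, read 25.4, 26.6 and 30.4 TPM at MCE2 and 7.76, 7.23 and 7.501 TPM at Day4 (-1.74 ± 0.11 SE on the log2 scale, adjusted p = 2.05e-09) and lay near its Control mean of 6.72 TPM by Day4. Pde10a read 4.57, 14.1 and 9.22 TPM at MCE2 and 0, 0 and 0.0372 TPM at Day4 (-3.23), and the kinase Sik1 fell from 88.6 ± 5.42 to 45.7 ± 0.991 TPM (-0.94). Nr4a1, an immediate early nuclear receptor, fell 3.11-fold (-1.60). Egr1 (1.20) and Fos (0.91) rose.

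Among glucocorticoid responsive genes the rises outnumbered the falls. Of 29 measured members 16 rose (55.2%, against 30.5% of all genes) and 7 fell (24.1%, near the 23.8% of all genes), with a median of 0.31. At Day6, 14 were called lower than at Day4, against 12.3% of all genes. Fkbp5, a chaperone of the glucocorticoid receptor, read 631, 615 and 588 TPM at MCE2 and 542, 553 and 576 TPM at Day4 and was not called (-0.13 ± 0.08 SE on the log2 scale, adjusted p = 0.174). It was called lower with the fit on the 6 libraries alone (adjusted p = 0.0442) and with quantile normalization (0.0438). It stood at 108 TPM at Day6 (Day6 minus Day4 -2.37, adjusted p = 6.62e-11). Tsc22d3 (GILZ) rose from 184 ± 8.88 to 384 ± 10.8 TPM (1.06 ± 0.12 SE on the log2 scale, adjusted p = 1.84e-06) and was at 73.2 at Day6 (-2.38, adjusted p = 1.67e-09). Sult1a1, a sulfotransferase, rose 24.2-fold, from 6.67 ± 0.288 to 161 ± 15.7 TPM (4.40). The receptor Nr3c1 rose from 17.4 ± 4.48 to 32.2 ± 2.99 (0.88). Per1 (-0.71) and Dusp1 (-1.24) fell.

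Clock genes moved both ways. Of 16 measured members 8 rose, against 30.5% of all genes, and 6 fell, against 23.8%. Both shares were above those of all genes. The activators that bind D-box elements, Dbp (5.69 to 21.6 TPM, 1.76) and Tef (3.402 to 17.7 TPM, 2.06), rose, and Nfil3, their repressor at the same element, fell from 104 ± 7.75 to 39.5 ± 2.45 TPM (-1.38). Per1 and Per2 (-0.89) fell while Per3 rose (0.87). The hour of harvest of each group is not in the labels, so time of day and stage cannot be told apart here.

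Matrix genes moved both ways, in shares not far from those of all genes (30.5% higher, 23.8% lower) for the fibrillar list. Of 31 measured fibrillar matrix and fibroblast genes 12 rose (38.7%) and 8 fell (25.8%), and of 20 basement membrane genes 7 rose and 9 fell. Col1a1 (chromosome 11, 94797538 to 94814356) read 436, 390.3 and 405 TPM at MCE2 and 1400.00, 1446 and 1540.4 TPM at Day4 (1.83 ± 0.14 SE on the log2 scale, adjusted p = 3.47e-08). The 3 Day4 libraries lay far above those of MCE2, and the Control mean was 1235 TPM. Its partner chain Col1a2 rose from 895 ± 39.7 to 2417 ± 128 TPM (1.43) and Col3a1 from 1262 ± 29.00 to 2703 ± 137 (1.10), both among the 6 largest rises in TPM. Ogn (osteoglycin), a small proteoglycan, read 1.62, 1.97 and 1.02 TPM at MCE2 and 103, 98.1 and 93.5 TPM at Day4 (5.31 ± 0.13 SE on the log2 scale, adjusted p = 8.71e-14), with groups far apart. Lox, which crosslinks collagen, rose 5.12-fold (2.35) and Thbs2 6.34-fold (2.61).

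Several proteins of the provisional matrix and the basement membrane fell. Vcan (versican) fell from 531 ± 73.97 to 163 ± 22.4 TPM (-1.70 ± 0.14 SE on the log2 scale, adjusted p = 6.28e-08), Fn1 (fibronectin) 2.13-fold (-1.08), and the elastic fibre genes Fbln5 (-1.24) and Loxl1 (-1.10) fell. Col4a1, the main chain of basement membrane collagen, fell from 1906 ± 60.9 to 1342 ± 91.2 TPM (-0.51 ± 0.10 SE on the log2 scale, adjusted p = 5.70e-04), with Col4a2 (-0.67) and the laminin chains Lamc1 (-1.002) and Lama4 (-0.81). Col4a5, another collagen IV chain, rose from 9.92 ± 1.25 to 52.8 ± 7.71 (2.30). Among matrix proteases and inhibitors 16 of 29 rose (55.2%, against 30.5% of all genes) and 6 fell (20.7%, against 23.8%). Mmp14 (1.05), Mmp2 (0.67) and Plat (2.28), which activates plasminogen, were among the rises.

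In the cytoskeleton list 11 of 28 genes rose (39.3%, against 30.5% of all genes) and 10 fell (35.7%, against 23.8%). The tubulins Tubb5 (1019 ± 53.7 to 502 ± 6.63 TPM, -1.02), Tuba1b (-1.21) and Tubb6 (-1.31) and the cytoplasmic actin Actg1 (-0.87) fell. Acta2, smooth muscle actin, had a mean of 996 ± 71.3 TPM in Control and was low and not called here, with 5.67, 5.001 and 6.28 TPM at MCE2 and 5.304, 4.801 and 3.97 TPM at Day4. Quantile normalization called it lower (-0.45, adjusted p = 0.0341). Cnn2 (1.69), Mylk (1.70) and Tpm1 (0.73) rose.

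Many lysosomal and interferon responsive genes rose. Of 43 lysosome and autophagy genes 24 rose (55.8%, against 30.5% of all genes) and 4 fell (9.30%, against 23.8%), with a median of 0.27. The rises included the proteases and glycosidases Ctsf (1.45), Gaa (1.09) and Man2b1, with 87.2, 82.8 and 87.5 TPM at MCE2 and 177, 187 and 190.1 TPM at Day4. Of 20 interferon responsive and antigen presentation genes 14 rose (70.0%, against 30.5% of all genes) and 0 fell (against 23.8%), with a median of 0.61. Ifitm2, an interferon-induced membrane protein outside this list, fell from 2134 ± 43.9 to 784 ± 104 TPM (-1.45). Gbp2, a guanylate binding protein, read 0.657, 0.307 and 0.365 TPM at MCE2 and 9.01, 9.46 and 6.74 TPM at Day4 (2.70), B2m rose 1.52-fold (0.60) and Psmb8 of the immunoproteasome 5.42-fold (1.81). The other 14 listed members did not pass the filter, and Gbp2 passed it on its Day4 values alone.

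Stress, antioxidant and sterol genes moved both ways. Of 38 genes of the unfolded protein and amino acid stress responses 11 rose (28.9%, against 30.5% of all genes) and 16 fell (42.1%, against 23.8%). The stress gene Nupr1 (1.49) and Ddit3 (CHOP, 0.98) rose, while Sesn2 (-0.88) and Slc7a1 (-1.07) fell. Of 36 antioxidant genes 16 rose (44.4%) and 10 fell (27.8%), with glutathione transferases Gstt1 (1.83), Gstm1 (1.19) and Gstm2 (1.23) among the rises. Of 22 cholesterol genes 8 rose (36.4%) and 6 fell (27.3%), and Insig1, which holds back sterol synthesis, rose 3.32-fold (1.72). Cyp51 of the same pathway rose from 70.5 ± 2.13 to 169.9 ± 4.09 TPM, and Hsd17b7 (-1.29), Lss (-0.75) and the regulator Srebf2 (-0.83) fell.

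Of 32 genes of TGF beta and BMP signalling 8 rose (25.00%, against 30.5% of all genes), 8 fell (25.00%, against 23.8%) and 16 were not called. The falls included the receptors Tgfbr2 (93.03 ± 5.83 to 33.2 ± 0.498 TPM, -1.46) and Tgfbr3 (-0.996) and the signal carrier Smad3 (-0.98), and the rises the latent binding proteins Ltbp1 (1.09) and Ltbp2 (0.85). Genes often used as internal references moved as well. Of 17 such genes 5 rose (29.4%, against 30.5% of all genes) and 8 fell (47.1%, against 23.8%). Gapdh, the glycolytic enzyme, fell from 449 ± 37.5 to 215 ± 15.8 TPM (-1.06 ± 0.10 SE on the log2 scale, adjusted p = 2.87e-07), Polr2a of RNA polymerase II fell 2.397-fold (-1.24) and Tbp 1.53-fold (-0.59), while Sdha rose from 212 ± 2.21 to 318 ± 14.7 TPM (0.58) and B2m rose.

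**Figure D5:**
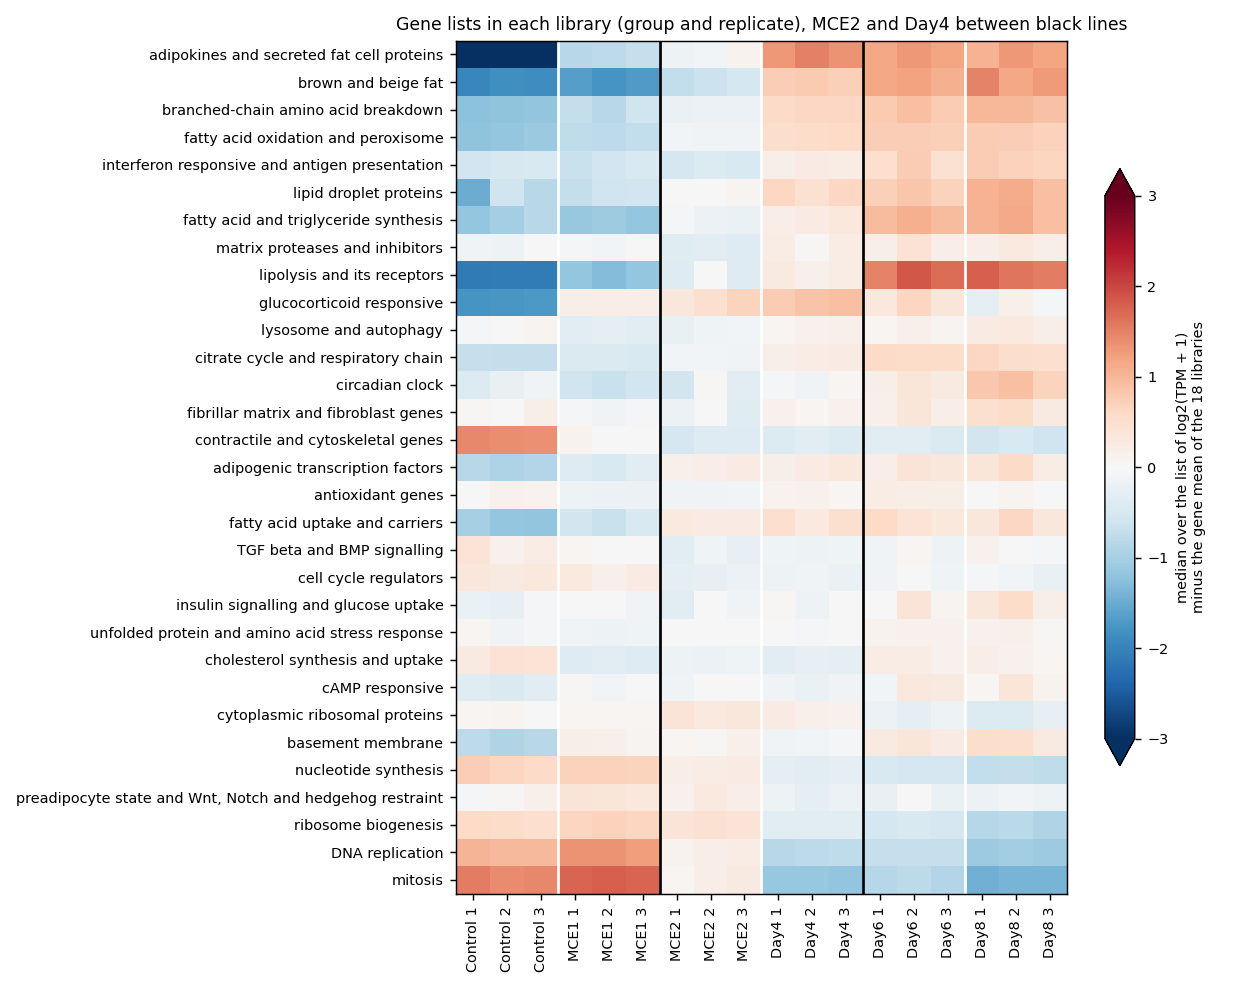
Rows are gene lists in the order of their median change and columns are the 18 libraries by stage and replicate, with MCE2 and Day4 between black lines. Colour gives the median over the list's tested genes of log2(TPM + 1) after subtracting each gene's mean over the 18 libraries, and within MCE2 and Day4 the 3 replicates of a list mostly share a colour, with mitosis turning from near 0 to blue and adipokines to red.

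A few genes were listed below 1 TPM at one stage and well above it at the other. With a mean under 1 TPM in one group, at least 10 TPM in the other and ranges apart, 12 genes were counted as switched on and 3 as switched off, a description of levels in which a value under 1 TPM is not read as absence. Itgbl1, an integrin-related secreted protein, read 0.379, 0.566 and 0.384 TPM at MCE2 and 55.1, 42.00 and 55.7 TPM at Day4, and Ubd (FAT10), a ubiquitin-like modifier, 0.75, 0.404 and 0.572 TPM at MCE2 and 52.1, 46.8 and 46.2 TPM at Day4. Mgst2, a glutathione transferase of the membrane, went from 0.448 to 16.7 TPM and Itih4, a plasma protein, from 0.244 to 17.5. The 3 switched off were the keratin Krt15 (33.7, 39.3 and 45.2 TPM at MCE2 and 0, 1.18 and 1.67 TPM at Day4), the crystallin Cryge (19.7, 13.9 and 18.96 TPM at MCE2 and 1.04, 0.917 and 0 TPM at Day4) and the histone gene H2ac4 (11.4 and 0.957 TPM). In Control the means of Krt15 and Cryge were 3.39 and 0 TPM.

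Of the 8 genes at each end of the ranking by log2 fold change, several were outside the lists. Clec3b (tetranectin) rose from 4.24 ± 0.809 to 136 ± 5.04 TPM (4.71 ± 0.11 SE on the log2 scale, adjusted p = 8.71e-14) and Ces1d, a carboxylesterase that hydrolyses triglyceride, from 1.27 ± 0.101 to 48.3 ± 2.62 (4.44). Krt13, an epithelial keratin, read 121, 123 and 147 TPM at MCE2 and 7.12, 8.97 and 9.44 TPM at Day4 (-3.79 ± 0.19 SE on the log2 scale, adjusted p = 2.65e-10), and the water channel Aqp1 217, 220.4 and 225 TPM at MCE2 and 23.99, 28.7 and 27.03 TPM at Day4 (-3.01 ± 0.08 SE on the log2 scale, adjusted p = 3.37e-13). In both the groups lay far apart. The H2A histone genes Hist1h2ao (-4.09, and -3.43 without Day4 replicate 1), Hist1h2ap (-3.33) and H2ac11 (-3.11) fell. These near-identical copies can share reads, and only polyadenylated histone RNA is measured. Hspd1, the mitochondrial chaperonin, had the highest value (5.41, and 4.69 without MCE2 replicate 3), with 27.9, 36.3 and 6.34 TPM at MCE2 and 863, 781 and 893 TPM at Day4, but its other groups ranged from 84.5 to 732 TPM (Control), 859 to 875 (Day6) and 86.6 to 733 (Day8). The 6 largest falls in TPM also included Ifitm2 and the chaperone Hsp90ab1, which fell from 3706 ± 109 to 2467 ± 28.00 TPM (-0.59).

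Defining markers of macrophages and endothelium were at or near 0, as were Myod1 and Myog of skeletal muscle, and the part of any of them in these results was not tested. In the 3 MCE2 and 3 Day4 libraries the summed level of 14 macrophage markers was 6.19 to 8.37 and 8.304 to 11.5 TPM, with Adgre1 and Ptprc at 0 in all 6, and that of 14 endothelial markers 1.64 to 1.96 and 3.04 to 3.42 TPM, with Cdh5 at 0. For 15 skeletal muscle markers it was 3.93 to 7.798 and 16.8 to 17.01 TPM, with Des at 2.79 and 13.9 TPM and Myod1 and Myog at 0. For 14 hepatocyte and epithelial markers it was 1.14 to 1.95 and 5.65 to 10.8 TPM, while the keratins Krt13 and Krt15, which are not in that list, fell from the MCE2 values given above. Bone and cartilage markers summed to 85.4 to 89.3 and 110.1 to 127 TPM, with osteopontin (Spp1) rising from 21.3 ± 3.33 to 76.3 ± 7.39 and Sox9 falling from 59.1 ± 2.15 to 30.6 ± 0.387, while the bone genes Sp7, Ibsp and Dmp1 did not pass the filter. Of the markers of fat cells, Adipoq, Plin1, Cidec, Retn, Cfd, Fabp4, Slc2a4, Lipe and Pnpla2 were detected in all 6 libraries. The remaining marker, Lep, did not pass the filter, with at most 0.199 TPM in a Day4 library. Of the preadipocyte or fibroblast markers, Col1a1 and Col3a1 rose, Ly6a fell and Dlk1 was not called, as given above. Cd34 did not pass the filter, with at most 0.62 TPM in a Day4 library. Values of the other markers chosen for this cell type, Pdgfra, Pdgfrb and Thy1, are not given here.

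Called genes were spread over the genome. On the 20 chromosomes with at least 100 tested genes, 26.1 to 38.9% of genes were called higher and 17.1 to 28.3% lower. The median annotated span was 17.2 kb for genes called higher, 20.3 kb for those called lower and 19.5 kb for all tested. Genes called lower had a median of 45.3 TPM at MCE2, against 14.2 for those called higher and 19.9 for all tested. At Day4 these medians were 29.0, 24.0 and 20.2 TPM. A gene called lower is by the call higher at MCE2 than at Day4, so the gap at MCE2 is partly set by the call.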

How the data were processed

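Polyadenylated RNA of 3T3-L1 cells was sequenced from 18 libraries, 3 for each of 6 stages, and the labels' protocols name a kit that keeps no strand. The authors deposited 1 table per library with TPM per gene, made with HISAT2 and StringTie after FastQC and cutadapt on the mm9 build, per the submitters' processing notes. Tool versions, the annotation and any filter are not given in the sources used here. TPM are relative to the library and keep no depth: the listed genes of the 6 libraries summed to 876408 to 880273, so a share of transcripts lies outside the listed genes, and no interval from read counts can be given. Overlapping and antisense genes may share reads.

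Of 25209 genes listed, 12 were left out because a library places them at another locus. The log2 of the deposited TPM plus a pseudocount of 1 was taken for the 11607 genes with 1 TPM or more in 3 or more of the 6 libraries. One limma fit (version 3.58.1, R 4.3.3, trend and robust options) with a mean for each of the 6 groups gave the 2-sided contrast, with 12 residual degrees of freedom and Benjamini-Hochberg adjustment over all genes tested. Tables and plots were made with Python 3.11.15, pandas 2.3.3, numpy 2.4.6 and matplotlib 3.10.9. Tested on simulated data for this contrast with all 11607 genes, the fit called 37 of 67 genes changed by 0.5 log2 units (55.2%). It called 65 of 67 genes changed by 1 (97.0%) and 65 of 66 changed by 2 (98.5%). The changed genes were drawn from those with a mean log2(TPM + 1) above 3 at MCE2, and values were given normal scatter. These rates are for those genes only and do not cover genes of lower TPM. How the rates vary with TPM was not tested. The 37 gene lists were written from general knowledge, and the comparison, the members and the lists were chosen with earlier results of these data known. Lists were described by counts and medians, with no test of a list.

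Genes could be named if they were in a panel of 37 markers of adipogenesis, the cell cycle and hormone response, among the 8 called genes with the highest or lowest log2 fold change (at least 10 TPM in the higher group, ranges apart, predicted models left out), among the 6 with the largest rise or fall in TPM, or among the 6 highest genes switched on or off. In a described list of at most 35 measured members any member could be named, and in a longer one 6 called members with the largest change and 3 not called with the highest level. Promoters are from RefSeq (GRCm38.p6) and were matched by symbol for 9101 of the genes tested, and those of up to 3 called members with the largest change are printed. Alternatives changed the pseudocount, the filter, the scaling, the libraries in the fit, a replicate block, the limma options and each replicate in turn. A fit without Control replicate 1 was added after seeing the data.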

Additional observations from a re-analysis of the deposited data

How the results depend on the processing

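The number of genes called higher (3535) ranged from 3039 with quantile normalization to 3975 with no filter, and the number called lower (2763) from 2411 with a replicate block on the 6 libraries alone to 3308 with quantile normalization. Adding a minimum change of 1 log2 unit left 884 higher and 437 lower. Leaving out each MCE2 or Day4 replicate in turn gave 3099 to 3456 higher and 2431 to 2764 lower, and leaving out Control replicate 1, chosen after seeing the data, gave 3503 and 2721. No gene was called in opposite directions by the main fit and an alternative. No pairing by replicate number was seen: deviations of same-numbered MCE2 and Day4 libraries correlated at -0.07, -0.03 and -0.01, and those of differently numbered ones at -0.026 to 0.051. Deviations are taken from each group's own mean, so these values constrain one another. Whether a number marks a shared batch was not tested. With the replicate block, 3514 genes were called higher and 2768 lower over 18 libraries, and 3045 and 2411 over the 6 alone.

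Of the 209 called genes whose log2 fold change is printed, 206 kept direction and call under every alternative, and the others (Bckdk, Cpt1a and Lcn2) are given with their values above. Genes that were not called changed sign when 1 replicate was left out, with log2 fold changes of -0.13 to 1.5 for Cdkn1a, -0.11 to 0.052 for Cdkn1b, -0.076 to 0.012 for Lipe and -0.49 to 0.014 for Pparg. All 306 counts of the 17 main list results stayed within 1.5 times of their value, while 80 of 663 medians of lists moved by more than the spread between replicates. The median over all genes was 0.05, 0.01 with median-ratio scaling and -0.03 with quantile normalization. Genes near 0 at one stage changed more with a pseudocount of 0.1, as Cox8b (7.37 in place of 4.13) and Pde10a (-6.26 in place of -3.23). The depth is unknown, so no limit of detection can be given, and genes under 1 TPM, a listed 0 in 1 library and differences between near-identical genes cannot be resolved.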

Other observations

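Several genes that fat cells are known to express were listed at 0 TPM in all 6 libraries: Rbp4 (retinol binding protein), Mgll (the lipase of the last step of lipolysis), Mest, Sgk1 and Mlxipl (ChREBP). Bscl2 (seipin), which builds lipid droplets, was listed at 0, 4.32 and 6.25 TPM at MCE2 and 0, 0 and 0 at Day4. Eif4e, the cap-binding translation factor, was listed at 0 in 1 library of each group. Whether these zeros are low levels or failed estimates was not tested, and these genes were singled out after their values were seen.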
